A study of Mus musculus with 29 samples.

Results

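The 2 single-antibody groups of a mouse gastric cancer study were compared with each other at week 5: 5 mice given anti-PD1 alone and 4 mice given anti-CTLA4 alone. The libraries were chosen by their labels, and they are 9 of the 29 bulk RNA-seq libraries of the series, 1 library per mouse. All mice were female C57BL/6J mice of 5 to 6 weeks of age that received YTN16, a mouse gastric cancer cell line, by intraperitoneal (IP) injection on day 0 as a model of peritoneal dissemination. Anti-PD1 (clone RMP1-14) was given IP at 10 mg/kg and anti-CTLA4 (clone 9H10) at 5 mg/kg, each on days 5, 8 and 12 and again on days 21 and 28. Tissue was taken on day 35. The study states that a mouse of the anti-CTLA4 group died before autopsy and was left out, so those libraries come from survivors. The 5 untreated mice of the same day, which received PBS on those days, are given as the background level. The 5 mice of that day given both antibodies (dual immune checkpoint inhibitor, dual ICI) enter only the CPM scaling, some alternative fits and the last section. RNA came from the stripped peritoneum with or without nodules, and the shares of epithelial and muscle transcripts differed between mice. Total counts per library lay between 27477153 and 29551427 with anti-PD1 and between 27574648 and 30012698 with anti-CTLA4.

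PD1 and CTLA4 are inhibitory receptors of T cells. CTLA4 competes with the costimulatory receptor CD28 for its ligands on antigen-presenting cells, acts mainly while T cells are being primed, and is carried at high levels by regulatory T cells. PD1 is displayed by activated and exhausted T cells and is engaged by its ligands in the tissue, where it dampens signalling from the T cell receptor. T cells released from either brake can make interferon-gamma, which acts on most cells of a tissue and raises the guanylate-binding proteins, the immunity-related GTPases, chemokines and antigen presentation genes. The comparison addresses whether the tissue that remained in week 5 differed in its transcripts according to which receptor had been blocked.

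The makeup of the tissue is given before the results, because 1 library stood apart. Genes of gastric epithelium took 0.462%, 0.550%, 0.628%, 0.459% and 0.00626% of the counts in anti-PD1 replicates 1 to 5. In anti-CTLA4 replicates 1 to 4 they took 0.708%, 0.276%, 0.512% and 0.523%. Anti-PD1 replicate 5 thus held almost no epithelial transcripts. Its label calls it tumor tissue, as for the other libraries. The study describes 1 of the 5 mice given anti-PD1 as cured, and none of those given anti-CTLA4. The labels do not say which library came from a cured mouse or which tissue held nodules. Krt8, a keratin of simple epithelia and the most abundant gene of that list, was at 12.6 CPM (counts scaled to the library total after TMM normalisation) in this library, against 1025 to 1325 CPM in the other anti-PD1 libraries and 808 to 1306 CPM with anti-CTLA4. Of the 28 epithelial genes tested, 27 were lowest in anti-PD1 replicate 5, the exception being Muc6, a gastric gland mucin (1.64 CPM there and 1.06 to 4.14 CPM in the other 8 libraries). All 23 tested genes of the proliferation list were lowest in it. Over all genes tested, this library was the lowest of the 9 in 40.7%. Mki67, a marker of dividing cells, was at 4.88 CPM there and at 44.7 CPM or more in each of the other 8 libraries.

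Skeletal muscle genes took 12.96%, 6.72%, 7.16%, 11.3% and 24.2% of the counts in anti-PD1 replicates 1 to 5. With anti-CTLA4 they took 4.65%, 17.1%, 12.0% and 11.4%. The anti-CTLA4 libraries therefore spanned a wider range of muscle content than the first 4 anti-PD1 libraries, with replicate 1 lowest and replicate 2 highest. In untreated mice the muscle share ran from 6.86% to 23.3% and the epithelial share from 0.131% to 0.561%. In these bulk samples, fewer cells of a type and less RNA per cell cannot be told apart.

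**Figure D1:**
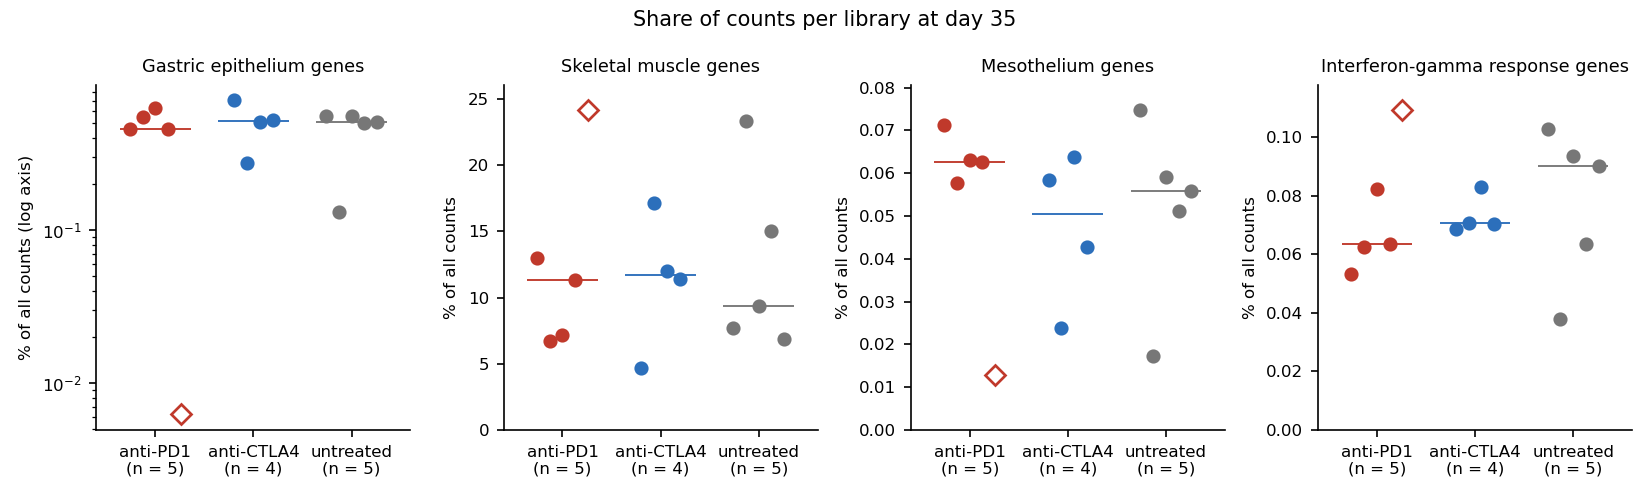
Percent of all counts taken by 4 gene lists (y axes; log axis for gastric epithelium) in the anti-PD1, anti-CTLA4 and untreated libraries of day 35 (x axis); each point is 1 mouse, the line is the group median, and the open diamond is anti-PD1 replicate 5. Among these 14 libraries that replicate was lowest for gastric epithelium (0.00626%) and highest for skeletal muscle (24.2%) and interferon-gamma response genes (0.109%).

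On a principal component analysis of the 9 libraries, the leading component held 75.1% of the variance and set anti-PD1 replicate 5 (at -171) apart from the other 8, which lay between -25.6 and 57.3. It was the highest of the 9 libraries in 34.2% of the genes tested and the lowest in 40.7%. Fold changes are therefore given with all 5 anti-PD1 libraries (5 against 4) and without replicate 5 (4 against 4). Without it, the leading component held 53.5% of the variance and ran from anti-CTLA4 replicate 1 (-55.7) to anti-CTLA4 replicate 2 (54.8), the libraries with the least and the most muscle among the 8. The anti-PD1 libraries lay between them, so this axis did not separate the treatments.

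With all 9 libraries, no gene passed an adjusted p under 0.05 among 15736 tested (0% called; edgeR quasi-likelihood test with Benjamini-Hochberg adjustment, smallest adjusted p = 1.00), and DESeq2 called 0 as well. At an unadjusted p under 0.05, 149 genes (0.947%) were counted, 60 with a higher and 89 with a lower level under anti-PD1. Of these, 15 were more than 2-fold higher and 30 more than 2-fold lower. The groups did not overlap in 38 genes that were higher with anti-PD1 (0.241% of those tested) and in 53 that were lower (0.337%). None of these genes passed the adjusted test, and they are given as values only.

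Without anti-PD1 replicate 5, edgeR again called 0 genes of 15700 (0% called), with a smallest adjusted p of 0.316 for S100a4. An unadjusted p under 0.05 was counted for 413 genes (2.63%), 242 higher and 171 lower with anti-PD1, of which 42 and 38 differed by more than 2-fold. The groups did not overlap in 173 genes that were higher (1.1%) and 134 that were lower (0.854%). DESeq2 called 6 genes in the same 8 libraries, all higher with anti-PD1: S100a4, Nt5e, Frmd7, Tph1, Mcpt1 and Dap. It ran there under its own filtering. On the genes edgeR tested (chosen after seeing the data), it called these 6 and another 5, of which Mmp13, Aqp5 and Klhdc8a were higher and Midn and Adamtsl5 lower with anti-PD1. With 1 more library left out in turn (8 fits, chosen after seeing the data), DESeq2 called S100a4 and Nt5e in all 8, Frmd7 in 6, Tph1 in 5, Mcpt1 in 4 and Dap in 2. Without anti-PD1 replicate 1 or anti-CTLA4 replicate 4, the call was lost for the last 4 of these genes. Without anti-PD1 replicate 3 it was lost for Tph1, Mcpt1 and Dap, without anti-PD1 replicate 4 for Mcpt1 and Dap, and without anti-PD1 replicate 2 or anti-CTLA4 replicate 3 for Dap. The common biological coefficient of variation (the spread between mice beyond counting error) was 0.362 with all 9 libraries and 0.23 without replicate 5.

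S100a4 encodes a calcium-binding protein of fibroblasts and motile tumor cells (chromosome 3, 90603771 to 90606045 on GRCm38, plus strand). It was at 52.1, 47.5, 46.4, 53.9 and 14.9 CPM in anti-PD1 replicates 1 to 5 and at 25.6, 33.3, 28.0 and 26.7 CPM in anti-CTLA4 replicates 1 to 4. Without anti-PD1 replicate 5 the groups did not overlap, and in that replicate the level lay below every anti-CTLA4 library. The log2 fold change (anti-PD1 over anti-CTLA4) was 0.82 ± 0.10 (SE, 4 against 4), with adjusted p = 0.316 by edgeR and 4.44e-07 by DESeq2. With all 9 libraries it was 0.60 ± 0.32. In 4 against 4 libraries, edgeR's adjusted p was 0.039 when the epithelial score of each library was a covariate and 0.00842 when its muscle score was. With a library left out of these covariate fits, it was 0.178 or more with the epithelial score in each of 8 fits, and 0.00694 to 0.0987 with the muscle score, under 0.05 in 4 of 8. With all 9 libraries the same fits gave 0.847 and 0.976. Untreated mice ranged from 18.0 to 61.7 CPM around a median of 28.8, a range that held all treated libraries except anti-PD1 replicate 5. The annotation places the gene Gm42674 across it on the same strand, so a share of its reads could have been assigned to either.

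Nt5e encodes CD73, the enzyme at the cell surface that makes adenosine from AMP (chromosome 9, 88327197 to 88372092, plus strand). Its levels were 34.95, 36.4, 34.5, 30.5 and 2.92 CPM with anti-PD1 and 18.7, 18.2, 23.1 and 22.4 CPM with anti-CTLA4. The first 4 anti-PD1 libraries lay above all anti-CTLA4 libraries, and replicate 5 lay far below them. The log2 fold change was 0.73 ± 0.11 without replicate 5 (DESeq2 adjusted p = 2.56e-05, edgeR adjusted p = 0.668) and 0.44 ± 0.55 with it. Untreated mice held 14.5 to 35.02 CPM, a range that held all treated libraries except anti-PD1 replicates 2 and 5.

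Frmd7 encodes a FERM domain protein of the cell cortex that is known from the developing eye-movement system (X chromosome, 50895180 to 50942710, minus strand). It was at 6.62, 4.62, 5.01, 9.00 and 3.64 CPM with anti-PD1 and at 1.98, 3.01, 2.83 and 2.57 CPM with anti-CTLA4. Here all 5 anti-PD1 libraries lay above all 4 anti-CTLA4 libraries. The log2 fold change was 1.16 ± 0.28 with all 9 libraries and 1.28 ± 0.24 without replicate 5, where DESeq2 gave an adjusted p = 0.0071. These fold changes are from edgeR, whose adjusted p for Frmd7 without replicate 5 was 0.316 or more. Untreated mice held 3.15 to 5.499 CPM, which overlaps the anti-PD1 range and lies above the anti-CTLA4 range.

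Tph1, the rate-limiting enzyme of serotonin synthesis outside the brain (chromosome 7), and Mcpt1, a protease of mucosal mast cells (chromosome 14), were also among the DESeq2 calls. Tph1 was at 13.1, 6.34, 10.9, 7.80 and 0.616 CPM with anti-PD1 and at 3.72, 4.40, 4.36 and 4.44 CPM with anti-CTLA4. Mcpt1 was at 6.55, 2.62, 11.4, 10.3 and 0 CPM with anti-PD1 and at 2.13, 1.58, 2.35 and 2.45 CPM with anti-CTLA4. In both genes the first 4 anti-PD1 libraries lay above the anti-CTLA4 libraries, and replicate 5 lay below them. The log2 fold changes without replicate 5 were 1.18 ± 0.23 for Tph1 (DESeq2 adjusted p = 0.00835) and 1.86 ± 0.41 for Mcpt1 (DESeq2 adjusted p = 0.0222), and with all 9 libraries they were 0.87 ± 0.61 and 1.54 ± 0.95. The mast cell list, which does not hold either gene, had 4 of 10 genes above 0 and a median log2 fold change of -0.02 in the same fit. Dap, a regulator of autophagy (chromosome 15), was at 129.8, 136.3, 126.1, 120.1 and 30.5 CPM with anti-PD1 and at 101.9, 77.5, 88.4 and 97.2 CPM with anti-CTLA4, a log2 fold change of 0.49 ± 0.10 without replicate 5 (DESeq2 adjusted p = 0.0477) and 0.25 ± 0.37 with it. The fold changes of Tph1, Mcpt1 and Dap are from edgeR, which called none of them. Its adjusted p without replicate 5 was 0.316 or more for each.

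**Figure D2:**
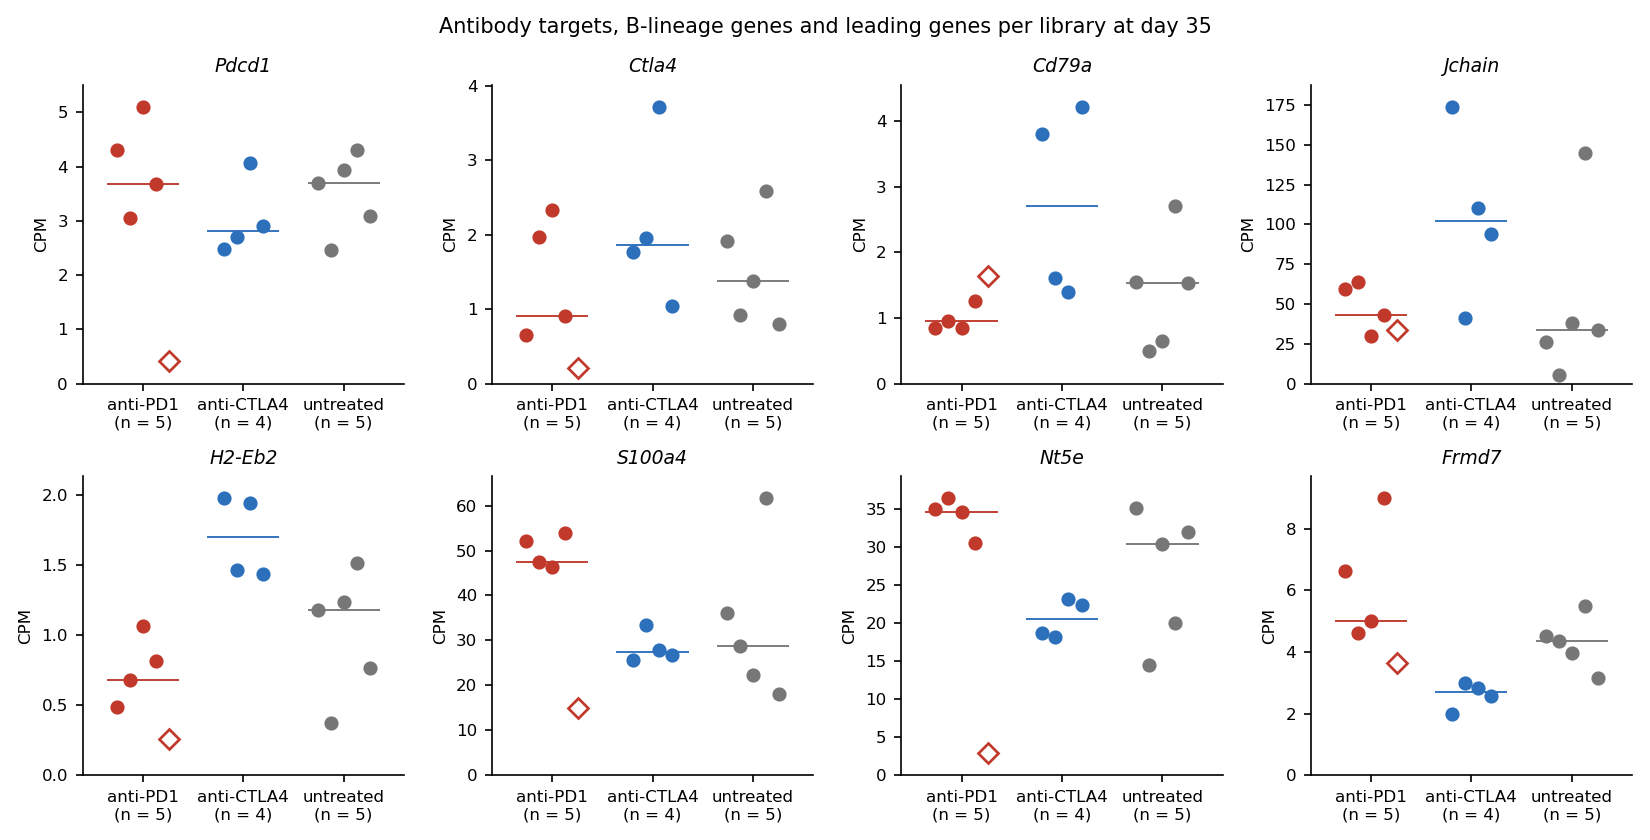
Level in CPM (y axes, linear from 0) of 8 genes in the anti-PD1, anti-CTLA4 and untreated libraries of day 35; points are mice, lines are group medians, and the open diamond is anti-PD1 replicate 5. S100a4 and Nt5e were higher in anti-PD1 replicates 1 to 4 than in every anti-CTLA4 library but low in replicate 5, whereas Frmd7 and H2-Eb2 separated the groups with all 9 libraries.

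Other genes of the same direction without anti-PD1 replicate 5 were Mmp13, a collagenase (log2 fold change 1.02 ± 0.22), Aqp5, a water channel of glandular epithelia (1.18 ± 0.27), Klhdc8a (0.83 ± 0.18) and Fam102b (0.43 ± 0.10). In these 4 genes the first 4 anti-PD1 libraries lay above the 4 anti-CTLA4 libraries, whereas replicate 5 lay below all of them, at 0.411 CPM for Mmp13 (1.19 to 1.80 CPM with anti-CTLA4), 0.257 for Aqp5 (3.38 to 5.27), 0.975 for Klhdc8a (1.45 to 1.88) and 50.2 for Fam102b (57.6 to 70.95). The log2 fold changes with all 9 libraries were 0.75 ± 0.48, 0.86 ± 0.74, 0.62 ± 0.33 and 0.30 ± 0.18. None passed the adjusted test of edgeR. DESeq2 without replicate 5 called none of them under its own filtering, and on the genes edgeR tested it called Klhdc8a, Mmp13 and Aqp5 (adjusted p = 0.0429, 0.0466 and 0.0466). Enpp2 encodes autotaxin, which makes lysophosphatidic acid. It was at 45.4 to 60.5 CPM in all 5 anti-PD1 libraries and at 24.5 to 44.2 CPM with anti-CTLA4, a log2 fold change of 0.52 ± 0.18 with all 9 libraries and 0.58 ± 0.17 without replicate 5. Untreated mice held 34.5 to 59.97 CPM of Enpp2, which overlaps both ranges. Alas2, the erythroid enzyme of heme synthesis, was at 7.24 to 12.1 CPM against 2.72 to 7.23 CPM (0.96 ± 0.28), and Inpp4b, a phosphoinositide phosphatase, at 24.0 to 33.2 CPM against 20.2 to 23.98 CPM (0.44 ± 0.12). Without replicate 5 these were 0.96 ± 0.28 and 0.39 ± 0.11. The lowest anti-PD1 library and the highest anti-CTLA4 library nearly touched in both genes. In untreated mice Alas2 ran from 2.21 to 21.2 CPM, a wider range than in the treated groups together.

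Genes that lay lower with anti-PD1 included Foxn1, the transcription factor of thymic epithelium and hair follicle keratinocytes, and Hsd17b13, an enzyme of lipid droplets. Foxn1 was at 0.326, 0.462, 0.547, 0.163 and 0 CPM with anti-PD1 and at 2.48, 0.639, 1.43 and 0.949 CPM with anti-CTLA4. Its log2 fold change was -2.14 ± 0.67 with all 9 libraries and -1.86 ± 0.50 without replicate 5, on counts of 84 or fewer per library. It reached the minimum of 1 CPM for named genes only through the anti-CTLA4 group (means 0.299 and 1.38 CPM). Hsd17b13 was at 0.103 to 1.54 CPM with anti-PD1 and at 1.73 to 4.81 CPM with anti-CTLA4, a log2 fold change of -1.63 ± 0.55 and, without replicate 5, of -1.35 ± 0.32. Both genes separated the groups without overlap in both fits. In untreated mice Foxn1 was at 0.1665 to 0.889 CPM and Hsd17b13 at 0.583 to 3.45 CPM, which overlaps both treated ranges of each gene. Dhx58, a cytosolic sensor of viral RNA, and Akna, an AT-hook protein of lymphoid cells, also lay lower in all 5 anti-PD1 libraries, by log2 fold changes of -0.47 ± 0.18 and -0.35 ± 0.13 (-0.38 ± 0.15 and -0.30 ± 0.13 without replicate 5). Antisense genes lie opposite both, so their counts are uncertain. Other annotated genes also overlap Enpp2, Inpp4b, Alas2, Fam102b, Foxp3, Dusp8, Krt8, Mki67, Eomes, Stat3, Il1b, Irf1, Gbp2, Gbp7, Fbxo32, Cd3e, Ctla4, Ifng, Ltb, Lck, Cd74, Mrc1 and Jag2, on either strand, and their counts are uncertain to that extent.

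**Figure D3:**
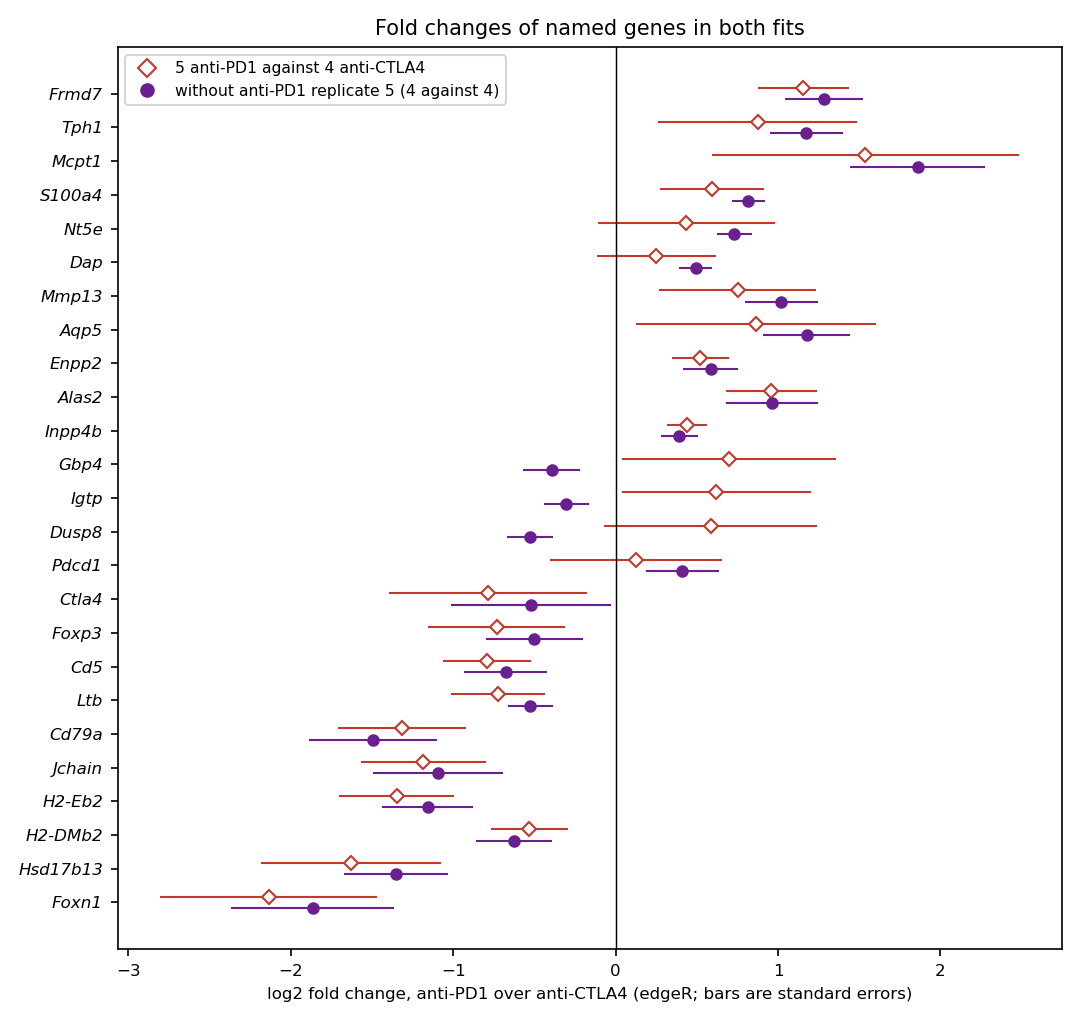
Log2 fold change of anti-PD1 over anti-CTLA4 (x axis) for 25 named genes, with standard errors as bars, from 5 against 4 libraries (open diamonds) and without anti-PD1 replicate 5 (filled circles). Gbp4, Igtp and Dusp8 lay on opposite sides of 0 in the 2 fits, and the bars of S100a4, Nt5e and Dap were at least 3-fold shorter without the replicate.

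The genes of the antibody targets themselves did not separate the groups. Pdcd1, which encodes PD1 (chromosome 1), was at 4.30, 3.05, 5.10, 3.67 and 0.411 CPM with anti-PD1 and at 2.48, 2.71, 4.07 and 2.91 CPM with anti-CTLA4. Its log2 fold change was 0.13 ± 0.53 with all 9 libraries and 0.41 ± 0.22 without replicate 5. Ctla4 (chromosome 1) was at 0.652, 1.97, 2.34, 0.910 and 0.205 CPM with anti-PD1 and at 1.77, 1.96, 3.72 and 1.04 CPM with anti-CTLA4, with log2 fold changes of -0.78 ± 0.61 and -0.52 ± 0.49. Untreated mice held 2.46 to 4.30 CPM of Pdcd1 and 0.796 to 2.59 CPM of Ctla4. The ranges of the 3 groups overlapped for both genes, and anti-PD1 replicate 5 was the lowest of the 9 in each. The antibodies bind the receptor proteins, which were not measured here.

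All 15 genes of the T cell list had a lower fitted level with anti-PD1, with a median log2 fold change of -0.44 in 5 against 4 libraries and -0.30 without replicate 5. Over all genes tested, 52.4% and 49.2% lay above 0 and the medians were 0.01 and 0.00. Of these T cell genes 1 (Cd5, a negative regulator of T cell receptor signalling) had an unadjusted p under 0.05 in each fit, against 0.947% and 2.63% of all genes, and none had groups that did not overlap. Cd5 was at 1.11, 1.54, 1.70, 1.33 and 0.872 CPM with anti-PD1 and at 1.92, 2.89, 2.74 and 1.59 CPM with anti-CTLA4. Only the anti-CTLA4 replicate 4 reached into the anti-PD1 range, and the log2 fold change was -0.79 ± 0.27 with all 9 libraries and -0.68 ± 0.26 without replicate 5. Cd3e, a chain of the T cell receptor complex, was at 1.85 to 3.04 CPM with anti-PD1 and at 2.24 to 3.38 CPM with anti-CTLA4, and Cd4 at 1.56 to 4.04 CPM against 3.49 to 4.62 CPM. Lck, the kinase next to the receptor, was at 2.77 to 6.14 CPM against 4.87 to 6.28 CPM. The T cell list as a whole took 0.00173% to 0.00514% of counts with anti-PD1 and 0.00385% to 0.00467% with anti-CTLA4, so the anti-CTLA4 range lay inside the anti-PD1 range.

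Of the CD8 and cytotoxic genes, 5 of 12 tested genes lay above 0 with all 9 libraries (median -0.13) and 7 of 12 without replicate 5 (median 0.02), and none had an unadjusted p under 0.05. Cd8a was at 1.69 to 5.86 CPM with anti-PD1 and at 2.29 to 4.20 CPM with anti-CTLA4, and Cd8b1 at 0.685 to 2.28 CPM against 0.752 to 1.37 CPM. Gzmb and Prf1, which encode granzyme B and perforin, were at 0.760 to 1.04 and 0.325 to 0.872 CPM with anti-PD1 and at 0.709 to 1.01 and 0.735 to 1.09 CPM with anti-CTLA4. Eomes, a transcription factor of cytotoxic T cells, was at 1.03 to 2.68 CPM against 2.00 to 2.42 CPM. Ifng, the gene of interferon-gamma, had 2 to 10 counts per library with anti-PD1 and 3 to 5 with anti-CTLA4 and was not tested. A difference in it was not detectable at this depth.

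Foxp3, the transcription factor of regulatory T cells, was at 1.53, 3.36, 3.16, 2.47 and 0.667 CPM with anti-PD1 and at 3.01, 5.04, 4.23 and 2.695 CPM with anti-CTLA4. The groups overlapped, with log2 fold changes of -0.73 ± 0.42 and, without replicate 5, -0.50 ± 0.30. In the regulatory T cell list 10 of 11 genes lay below 0 with all libraries and 9 of 11 without replicate 5 (medians -0.25 and -0.19), and none had an unadjusted p under 0.05. Among the other inhibitory receptors, Lag3 was at 3.90 to 5.76 CPM with anti-PD1 and 3.99 to 5.73 CPM with anti-CTLA4, Tigit at 0.308 to 2.76 against 1.07 to 1.80 CPM, and Havcr2 (TIM3) at 0.975 to 5.71 against 3.12 to 5.20 CPM. Btla was at 1.39 to 3.64 against 2.48 to 4.34 CPM. Its binding partner Tnfrsf14 was at 6.85 to 11.7 against 10.2 to 13.4 CPM, and the TIM3 ligand Lgals9 at 43.7 to 151.9 against 100.2 to 168.5 CPM. All of these overlapped between the groups. Cd244 (2B4) was the exception, at 0.770 to 2.34 CPM with anti-PD1 and 2.42 to 2.86 CPM with anti-CTLA4, so that its groups did not overlap. Of the 11 checkpoint receptor genes, 1 lay above 0 with all 9 libraries and 5 did without replicate 5 (medians -0.22 and -0.05). In each fit 1 of 11 was lower with anti-PD1 without overlap, against 0.337% and 0.854% of all genes. An unadjusted p under 0.05 (edgeR) was found for 1 of 11 and 0 of 11, against 0.947% and 2.63%.

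Cd28, the costimulatory receptor that shares its ligands with CTLA4, was at 1.40, 1.201, 1.79 and 2.76 CPM in anti-PD1 replicates 1 to 4 and at 10.2 CPM in replicate 5. With anti-CTLA4 it was at 1.71, 4.40, 2.80 and 2.39 CPM. The log2 fold change was 0.30 ± 0.66 with replicate 5 and -0.65 ± 0.35 without it, so this library alone set the sign. The costimulation list had 2 of 10 genes above 0 in both fits.

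B cell genes had the lowest list median among the immune cell lists without replicate 5. Of 9 tested B cell genes, 0 lay above 0 with all 9 libraries (median log2 fold change -0.55) and 1 did without replicate 5 (median -0.76). An unadjusted p under 0.05 was found for 3 of 9 genes in each fit, against 0.947% and 2.63% of all genes, and none passed the adjusted test. Cd79a, which encodes a signalling chain of the B cell receptor (chromosome 7), was at 0.848, 0.954, 0.851, 1.27 and 1.64 CPM with anti-PD1 and at 3.81, 1.62, 1.40 and 4.23 CPM with anti-CTLA4. Anti-CTLA4 replicates 1 and 4 were high, while replicates 2 and 3 lay next to the anti-PD1 range and overlapped it only at anti-PD1 replicate 5. Its log2 fold change was -1.32 ± 0.39 with all 9 libraries and -1.49 ± 0.40 without replicate 5. Untreated mice held 0.4995 to 2.71 CPM of Cd79a, which overlaps both ranges. Blk, a B cell kinase, was at -1.13 ± 0.34 and -1.14 ± 0.37, on 5 to 25 counts per library.

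Jchain, the joining chain of secreted IgA and IgM and a gene of plasma cells (chromosome 5), was at 59.4, 63.9, 29.9, 43.3 and 33.9 CPM with anti-PD1. With anti-CTLA4 it was at 174.0, 40.9, 110.0 and 94.2 CPM. Anti-CTLA4 replicate 2 lay inside the anti-PD1 range and the other 3 above it, with log2 fold changes of -1.18 ± 0.39 and, without replicate 5, -1.09 ± 0.40. Untreated mice spanned 5.16 to 145.0 CPM, so the spread among them exceeded the difference between the treated groups. The plasma cell list had 1 of 7 and 2 of 7 genes above 0, and only these 7 of its 13 genes had counts to use. Sdc1, a gene of that list, was at 17.8 CPM in anti-PD1 replicate 5, where epithelial transcripts were few. In the other libraries of the comparison it was at 99.4 to 187.1 CPM, so the list may not reflect plasma cells alone. Ltb, which encodes lymphotoxin beta of lymphocytes, lay lower in every anti-PD1 library (2.26 to 7.2 CPM) than in every anti-CTLA4 library (8.33 to 10.8 CPM), with log2 fold changes of -0.73 ± 0.29 and -0.53 ± 0.14 (edgeR, not called after adjustment).

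MHC class II genes, which present antigen to CD4 T cells, had 1 of 11 genes above 0 in each fit (medians -0.23 and -0.29). H2-Eb2 (chromosome 17), a class II gene of low expression, was at 0.489, 0.677, 1.06, 0.812 and 0.257 CPM with anti-PD1 and at 1.98, 1.47, 1.94 and 1.44 CPM with anti-CTLA4. All 5 anti-PD1 libraries lay below all 4 anti-CTLA4 libraries, and the log2 fold changes were -1.35 ± 0.35 and -1.16 ± 0.28. Untreated mice held 0.375 to 1.51 CPM of H2-Eb2, which overlaps both ranges. H2-DMb2, a chain of the H2-DM molecule that exchanges peptides on class II, was at -0.53 ± 0.24 and -0.63 ± 0.23, and its groups separated only without replicate 5. Class II genes lower with anti-PD1 without overlap were 1 of 11 and 2 of 11, against 0.337% and 0.854% of all genes. The groups overlapped in the main class II genes. H2-Aa was at 238.1 to 418.5 CPM with anti-PD1 and at 199.3 to 498.6 CPM with anti-CTLA4, and Cd74, the invariant chain, at 813.4 to 1318 against 801.2 to 1571 CPM. H2-Eb2, H2-DMb2 and the class I gene H2-Q2 (-1.004 ± 0.67 and -0.70 ± 0.36) belong to families of similar sequence, so their counts are uncertain where reads could be shared.

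**Figure D4:**
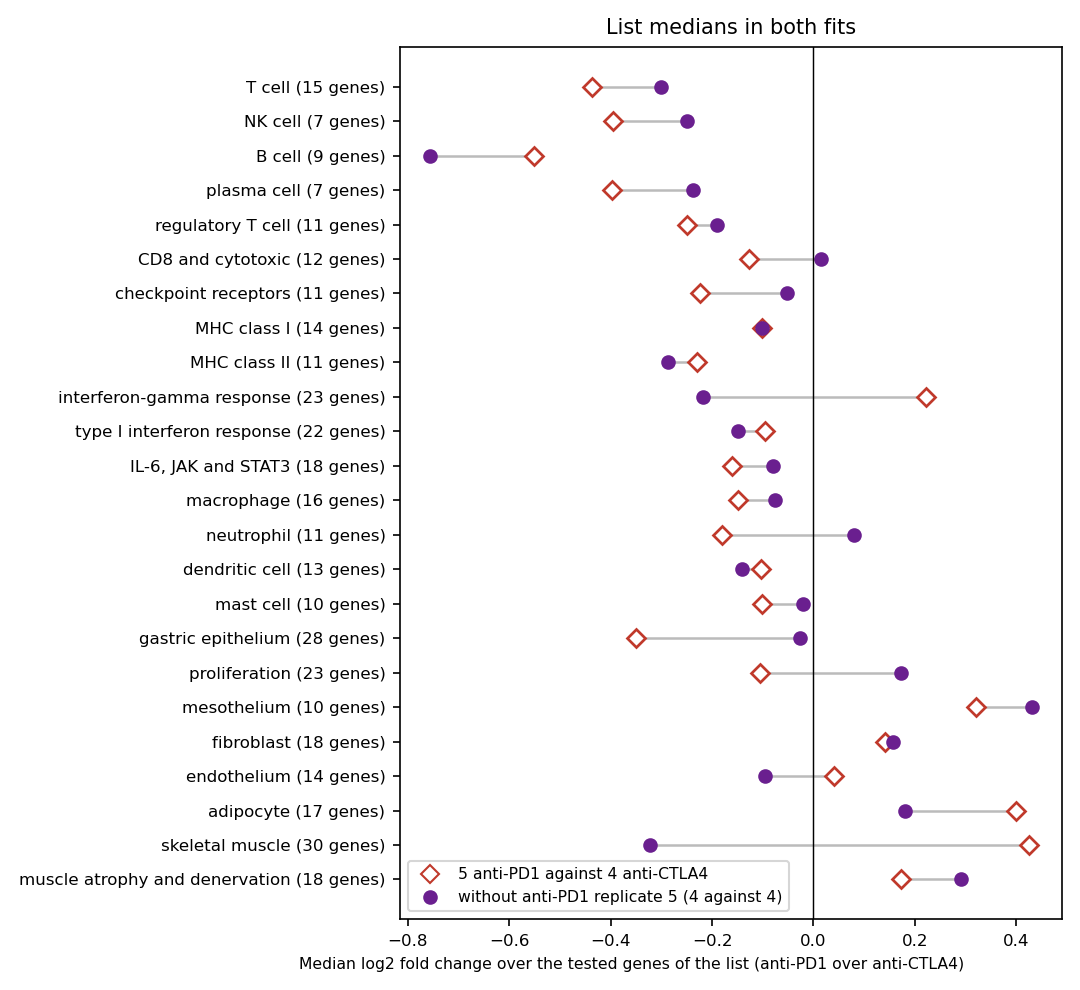
Median log2 fold change of anti-PD1 over anti-CTLA4 (x axis) over the tested genes of 24 lists (y axis, with the number of genes), with 5 against 4 libraries (open diamonds) and without anti-PD1 replicate 5 (filled circles). The T, NK, B and plasma cell lists lay below 0 in both fits, while the interferon-gamma response (0.22 and -0.22) and skeletal muscle (0.43 and -0.32) lists changed sign.

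Among the immune lists, leaving out anti-PD1 replicate 5 moved the median log2 fold change most in the interferon-gamma response list. With all 9 libraries 15 of its 23 genes lay above 0 with a median log2 fold change of 0.22, and without replicate 5 only 1 of 23 did, with a median of -0.22. No gene of the list had an unadjusted p under 0.05 in either fit. Replicate 5 was the highest of the 9 libraries for 14 of the 23 genes, and for 11 of them it exceeded the next library more than 2-fold. Over all genes tested it was the highest in 34.2%, and no such share was taken for the 2-fold count. Gbp4, a guanylate-binding protein, was at 18.4, 15.6, 21.7, 22.5 and 129.3 CPM in anti-PD1 replicates 1 to 5 against 18.8, 29.2, 30.8 and 24.3 CPM with anti-CTLA4, and Igtp, an immunity-related GTPase, at 22.2, 23.0, 31.8, 25.5 and 139.8 CPM against 27.2, 33.6, 35.3 and 30.8 CPM. In both genes the first 4 anti-PD1 libraries overlapped the anti-CTLA4 libraries and replicate 5 lay above all of them. The log2 fold changes were 0.70 ± 0.66 and 0.62 ± 0.58 with replicate 5 and -0.39 ± 0.17 and -0.30 ± 0.14 without it. Gbp2 went from 0.22 ± 0.31 to -0.07 ± 0.20 and Gbp5 from 0.41 ± 0.47 to -0.21 ± 0.19.

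Not every gene of the list was high in that library. Irf1, an early transcription factor of the pathway, was at 63.2 CPM in replicate 5 and at 57.1 to 76.9 CPM in the other anti-PD1 libraries, and Cxcl9, a chemokine that draws T cells, was at 26.6 CPM against 15.1 to 35.5 CPM. The library was normalised with a TMM factor of 0.696, the lowest of the 9, which raises its CPM values. On the share of raw counts, which does not use the factor, the whole list took 0.109% in replicate 5, 0.0531% to 0.0823% in the other anti-PD1 libraries and 0.0685% to 0.0831% with anti-CTLA4, while untreated mice held 0.0378% to 0.103%. Epithelial content was lowest and muscle content highest in the same library, and their part in these levels was not tested. Gbp4 overlaps Gbp8 and Gbp9, and Igtp overlaps Irgm2, on the same strand, so reads could be shared within these pairs.

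**Figure D5:**
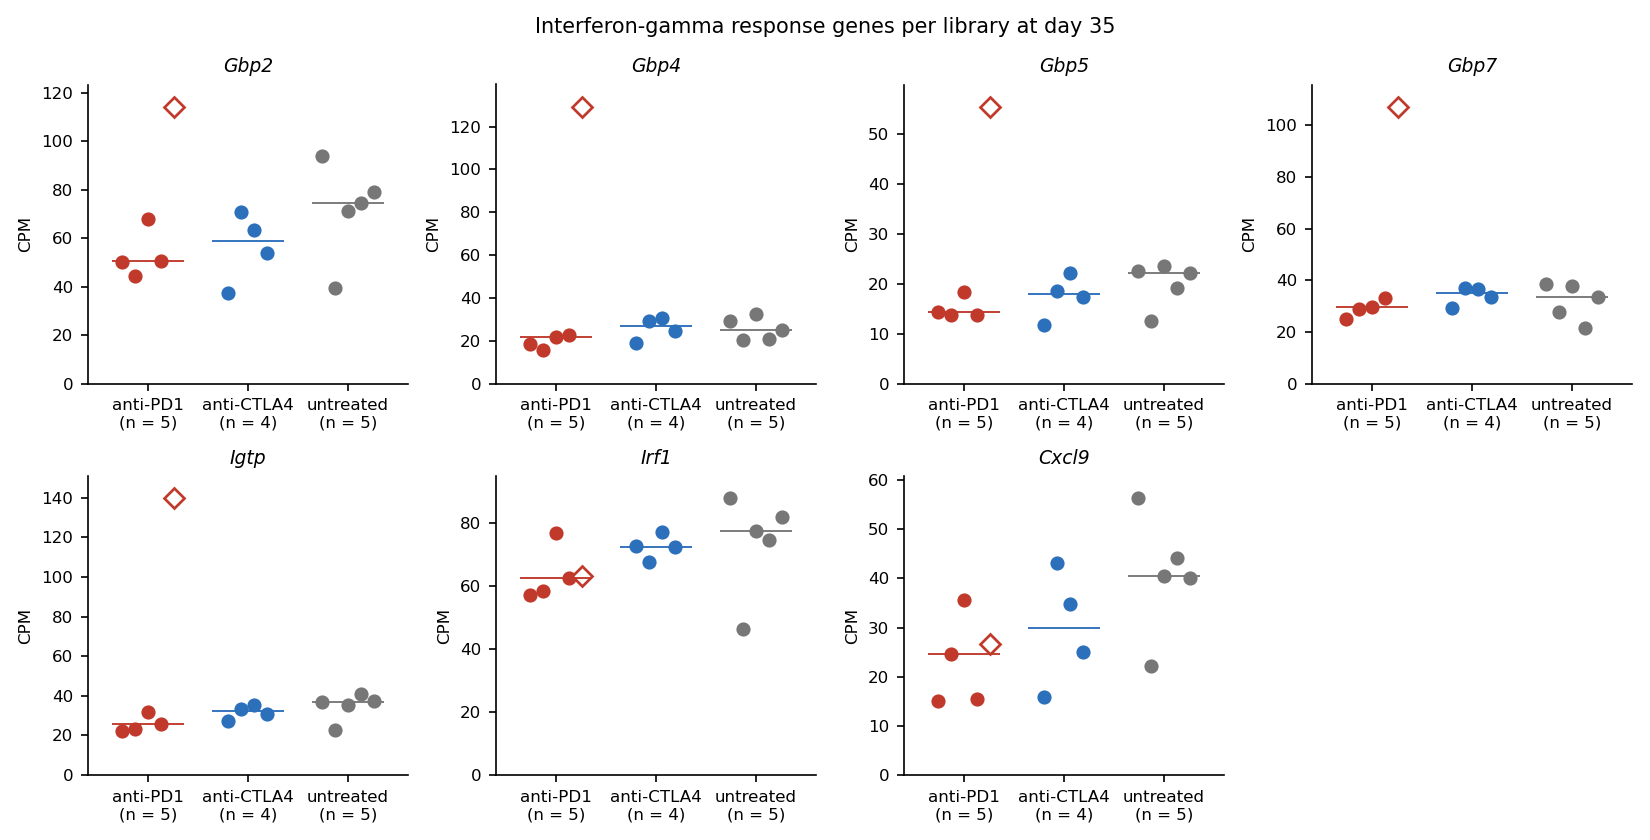
Level in CPM (y axes, linear from 0) of 7 interferon-gamma response genes in the anti-PD1, anti-CTLA4 and untreated libraries of day 35; points are mice, lines are group medians, and the open diamond is anti-PD1 replicate 5. Gbp2, Gbp4, Gbp5, Gbp7 and Igtp were highest in that replicate among these 14 libraries, Irf1 and Cxcl9 were not.

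The promoters of such genes are known to hold the sites through which interferons act: the gamma-activated site (GAS), and the interferon-stimulated response element (ISRE). The 250 bases before the gene start were taken from RefSeq (GRCm38.p6) for the 13 of 23 list genes matched by symbol, and searched on both strands for TTCNNNGAA (GAS) and for GAAA, any 2 bases and GAAA again (ISRE). A promoter of Gbp7 and of Igtp, which were high in replicate 5, and of Irf1 and Cxcl9, which were not, is shown in the direction of the gene, with matches in capitals.
Gbp7 (chr3:142530086-142530335, plus strand): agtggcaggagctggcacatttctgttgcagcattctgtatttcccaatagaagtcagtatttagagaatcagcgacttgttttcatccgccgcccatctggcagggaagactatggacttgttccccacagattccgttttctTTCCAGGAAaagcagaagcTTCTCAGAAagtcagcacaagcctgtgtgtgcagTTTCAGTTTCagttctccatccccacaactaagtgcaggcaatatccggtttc
Igtp (chr11:58199306-58199555, plus strand): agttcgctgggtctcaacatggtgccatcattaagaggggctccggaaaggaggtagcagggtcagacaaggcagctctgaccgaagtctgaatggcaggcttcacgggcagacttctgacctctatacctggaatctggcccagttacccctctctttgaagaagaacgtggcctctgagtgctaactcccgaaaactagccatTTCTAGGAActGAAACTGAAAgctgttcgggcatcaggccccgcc
Irf1 (chr11:53769764-53770013, plus strand): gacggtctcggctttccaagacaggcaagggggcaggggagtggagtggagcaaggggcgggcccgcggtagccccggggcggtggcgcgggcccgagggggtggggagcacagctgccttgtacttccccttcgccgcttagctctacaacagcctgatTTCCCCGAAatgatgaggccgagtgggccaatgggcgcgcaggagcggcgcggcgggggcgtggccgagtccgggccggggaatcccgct
Cxcl9 (chr5:92328080-92328329, minus strand): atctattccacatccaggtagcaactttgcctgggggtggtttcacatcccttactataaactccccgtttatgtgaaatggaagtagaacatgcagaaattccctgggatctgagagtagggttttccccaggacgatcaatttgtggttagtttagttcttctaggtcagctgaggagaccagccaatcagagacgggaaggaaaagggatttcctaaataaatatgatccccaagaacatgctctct

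Gbp7 and Igtp held matches to both motifs, Irf1 to GAS alone and Cxcl9 to neither. The ISRE letters were found in 10 of the 13 list promoters (76.9%) and in 3.46% of the promoters of 27025 genes, and the GAS letters in 7 of 13 (53.8%) and in 8.13%. Replicate 5 was the highest library for 8 of the 10 genes with the ISRE letters and for 0 of the 3 without them. For the GAS letters it was highest for 5 of 7 with and 3 of 6 without. These counts, and those over all genes, include windows that overlap exons of the GENCODE annotation. Of the list genes, 8 had a window free of exons, 5 of them with the ISRE letters and 5 with the GAS letters, and replicate 5 was highest for 3 of the 5 in each case and for 0 of the 3 without. A match is a description of the sequence and not a site shown to be used, and a missing match says only that these letters are not in this window. Over all genes tested, replicate 5 was the highest library in 34.2%. Gbp2, Gbp3, Gbp5 and Gbp7 are related genes on chromosome 3, and Igtp, Irgm1, Irgm2 and Tgtp1 are related genes on chromosome 11. The genes counted are thus not independent, and a link between motif and level was not tested.

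The type I interferon list had 8 of 22 genes above 0 with all libraries and 2 of 22 without replicate 5 (medians -0.09 and -0.15). The IL-6, JAK and STAT3 list had 6 of 18 above 0 in both fits (medians -0.16 and -0.08). Stat3, the transcription factor downstream of IL-6, was at 168.3 to 247.3 CPM with anti-PD1 and at 219.7 to 276.9 CPM with anti-CTLA4, and Il6 at 0.257 to 1.27 against 0.679 to 1.47 CPM. Il1b and Tnf, cytokines of inflammation, were at 1.39 to 11.6 and 0.821 to 9.69 CPM against 5.23 to 12.8 and 5.75 to 10.0 CPM, and Tgfb1 at 36.02 to 77.5 against 55.1 to 69.6 CPM. Among myeloid genes, Cd68 of macrophages was at 28.3 to 47.4 CPM against 37.4 to 49.5 CPM, Mrc1 (CD206) of tissue macrophages at 88.5 to 182.3 against 143.4 to 239.1 CPM, and Ly6c2 of monocytes at 2.25 to 4.22 against 2.89 to 5.06 CPM. The macrophage list had 2 of 16 and 5 of 16 genes above 0 (medians -0.15 and -0.08) and the neutrophil list 1 of 11 and 6 of 11 (medians -0.18 and 0.08). None of the genes in the macrophage, neutrophil and dendritic cell lists had an unadjusted p under 0.05.

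Skeletal muscle genes lay above 0 in 29 of 30 cases with all libraries (median 0.43) and in 1 of 30 without replicate 5 (median -0.32). Gastric epithelium genes lay above 0 in 2 of 28 and 14 of 28 cases (medians -0.35 and -0.03). Mesothelium genes lay above 0 in 9 of 10 and 10 of 10 cases (medians 0.32 and 0.43), with no group separated. Msln, the most abundant mesothelial gene of the list, was at 278.2 to 309.4 CPM in the first 4 anti-PD1 libraries, at 29.5 CPM in replicate 5 and at 109.3 to 311.9 CPM with anti-CTLA4. Fibroblast genes lay above 0 in 14 of 18 and 15 of 18 cases (medians 0.14 and 0.16), adipocyte genes in 16 of 17 and 13 of 17 (medians 0.40 and 0.18), and proliferation genes in 6 of 23 and 19 of 23 (medians -0.11 and 0.17).

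Among genes of muscle atrophy and denervation, 14 of 18 lay above 0 in each fit (medians 0.17 and 0.29), and an unadjusted p under 0.05 was found for 2 of 18 with all 9 libraries and 6 of 18 without replicate 5, against 0.947% and 2.63% of all genes. Chrng, the fetal subunit of the acetylcholine receptor, was at 1.96, 2.03, 2.89, 1.14 and 0.616 CPM with anti-PD1 and at 0.472, 1.17, 0.986 and 1.04 CPM with anti-CTLA4, with log2 fold changes of 0.92 ± 0.45 and, without replicate 5, 1.14 ± 0.36. Anti-PD1 replicate 4 lay within the anti-CTLA4 range, and replicate 5 between its lower values. Myog, the transcription factor of muscle differentiation, was at 0.81 ± 0.32 and 0.52 ± 0.22, and Sln, an inhibitor of the calcium pump of muscle, at 0.66 ± 0.22 and 0.48 ± 0.17. The ubiquitin ligases Fbxo32 and Trim63 spread widely within both groups, at 309.3 to 1220 and 139.2 to 1172 CPM with anti-PD1 and at 235.0 to 697.2 and 142.7 to 867.1 CPM with anti-CTLA4. No gene of this list passed the adjusted test of edgeR or DESeq2.

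The remaining lists are given by their counts, with 5 against 4 libraries and then without replicate 5. Natural killer cell genes lay above 0 in 0 of 7 cases in both fits (medians -0.40 and -0.25), eosinophil genes in 0 of 5 and 1 of 5, and dendritic cell genes in 4 of 13 and 3 of 13. MHC class I genes lay above 0 in 3 of 14 and 2 of 14 cases (both medians -0.10), chemokines in 9 of 32 and 13 of 32, and complement genes in 4 of 15 and 11 of 15. Checkpoint ligands lay above 0 in 5 of 10 cases in both fits. Among them Pdcd1lg2, which encodes the PD1 ligand PD-L2, was at a log2 fold change of -1.05 ± 0.43 with all 9 libraries and -0.92 ± 0.44 without replicate 5, and Cd80, a ligand shared by CD28 and CTLA4, at -0.62 ± 0.26 and -0.53 ± 0.26. These 2 of 10 had an unadjusted p under 0.05 with all 9 libraries, against 0.947% of all genes, and 0 of 10 did without replicate 5, against 2.63%. Cd274, which encodes the PD1 ligand PD-L1, was at 7.07, 9.27, 11.0, 10.6 and 58.35 CPM in anti-PD1 replicates 1 to 5. With anti-CTLA4 it was at 9.065 to 12.3 CPM. Genes of glycolysis and hypoxia lay above 0 in 14 of 17 and 7 of 17 cases (medians 0.31 and -0.09), endothelial genes in 8 of 14 and 3 of 14, and intestinal genes in 0 of 9 in both fits (medians -0.60 and -0.32). Among the smaller lists, Fc gamma receptor genes lay above 0 in 1 of 6 cases in both fits, T cell transcription factors in 5 of 12 and 4 of 12, T helper cytokines in 0 of 2 and 1 of 2, and monocyte genes in 3 of 8 and 5 of 8. Inflammatory cytokines lay above 0 in 6 of 18 and 9 of 18 cases, stress and early response genes in 5 of 14 and 2 of 14, acute phase genes in 4 of 11 and 6 of 11, and liver genes in 1 of 6 and 4 of 6. The erythrocyte and exocrine pancreas lists had 1 tested gene each, Alas2 above 0 in both fits and Cela1 only without replicate 5. The Y-linked list had 0 tested genes, and Xist, which female cells express, lay above 0 in both fits.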

How the data were processed

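The deposited table held raw counts per gene for 29 libraries (24421 genes). Per the labels, the submitters' processing notes name STAR 2.7.0f, featureCounts 1.6.4 and mm10, while the study's methods name another STAR version and HTSeq as the counter. How reads shared by overlapping genes were counted is therefore not known, and the annotation and strand setting are not given in the sources used here. Libraries were grouped by their labels. Genes were filtered with filterByExpr, normalised with TMM and tested with edgeR 4.0.16 (quasi-likelihood F test, Benjamini-Hochberg adjustment, R 4.3.3) across all genes, with all 9 libraries and without anti-PD1 replicate 5. Standard errors (SE) were derived from this test, as the absolute log2 fold change divided by the square root of the F statistic. DESeq2 1.42.0, with its own filtering in place of filterByExpr, was the alternative. CPM values use TMM-scaled totals over the 19 libraries of day 35, and list shares use raw totals. P-values measure the spread between the mice of these groups. The code was tested on simulated data.

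The members and the 43 gene lists (592 of 603 genes in the table) were chosen with earlier results of these data known. Named genes were the antibody targets, genes the study names, the genes with the smallest p among those whose groups did not overlap and that reached a mean of 1 CPM in the higher group, and the most abundant and smallest-p genes of each list. Midn and further members of the lists were named after their values were seen. Coordinates are from GENCODE vM21 (GRCm38), and promoter sequences from RefSeq (GRCm38.p6). Alternatives changed the model, filter, normalization, prior count, depth, covariates, block and libraries. Differences at a few counts per library were not detectable at this depth.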

Additional observations from a re-analysis of the deposited data

Results flagged for a closer look

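Within-group spread was checked for 72 genes and 6 list shares in both groups, 156 checks in all, and chance alone marks about 1 in 20 groups. A sample lay far from the others of its group in 26 checks, 16 of them for anti-PD1 replicate 5.

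Anti-PD1 replicate 5 lay far above the other anti-PD1 libraries for Gbp4 (129 CPM, next 22.5), Gbp5 (55.5), Gbp7 (107), Igtp (140), Cd28 (10.2), Dusp8 (116, next 18), Jag2 (61.4) and Adamtsl5 (108 CPM). It lay far below them for Krt8 (12.6), Msln (29.5), S100a4 (14.9), Nt5e (2.92), Dap (30.5) and Mki67 (4.87 CPM), and for the shares of counts of gastric epithelium (0.00626%) and mesothelium (0.0129%).

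Of the other 10, anti-CTLA4 replicate 1 was far below its group for Il1b (5.23 CPM, next 11.7), Tph1 (3.72) and Enpp2 (24.5) and far above it for Jag2 (51.3), Dhx58 (17.6) and Trim63 (867 CPM, next 218). Anti-CTLA4 replicate 3 was low for Eomes (2 CPM) and high for the interferon-gamma response share (0.0831%). Tigit was low in anti-CTLA4 replicate 4 (1.07 CPM), and Cd8b1 was high in anti-PD1 replicate 3 (2.28 CPM).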

How the results depend on the processing

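With all 9 libraries, 0 genes passed the adjusted test under every alternative run. The 45 genes of an unadjusted p under 0.05 and over 2-fold became 146 with DESeq2 under its own filtering (20119 genes, against 15736 in edgeR) and 63 with DESeq2 on the genes edgeR tested, 170 with no filter on low counts, 7 with at least 10 counts in every library, 86 when the epithelial score of each library was a covariate and 68 when its muscle score was. Leaving out 1 library gave 30 to 93 (80 without anti-PD1 replicate 5, 93 without anti-CTLA4 replicate 2). In 4 against 4 libraries, the 80 such genes became 180 with DESeq2 on 20056 genes and 92 on the 15700 of edgeR, 224 with no filter, 41 with at least 10 counts and 50 with all libraries of day 35 in 1 fit, and 81 to 143 with 1 library left out (143 without anti-CTLA4 replicate 1, 142 without replicate 2). Adjusted calls there were 6 with DESeq2, 11 with it on edgeR's genes (the 6, Midn, Adamtsl5, Klhdc8a, Mmp13 and Aqp5) and 1 with either covariate in edgeR (S100a4). With 1 library left out, edgeR called 0 without a covariate and with the epithelial score, and 0 to 3 with the muscle score. DESeq2 then called 2 (without anti-PD1 replicate 1) to 48 (without anti-CTLA4 replicate 2), with 3, 5, 7, 8, 15 and 27 in the others. DESeq2 on edgeR's genes and the DESeq2 and covariate fits with a library left out were chosen after seeing the data. Without the 2-fold threshold, the 149 genes of an unadjusted p under 0.05 (5 against 4) became 621 with the epithelial score. They became 535 with the muscle score and 90 to 413 with 1 library left out. In 4 against 4 libraries, the 413 genes became 644 and 1172 with these scores and 113 with all libraries of day 35 in 1 fit. Leaving out 1 library there gave 315 to 884. The cause of these changes was not tested.

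With all 9 libraries, leaving out 1 library at a time gave log2 fold changes of -0.65 to 0.606 for Cd28, -0.0745 to 0.363 for Gbp2, -0.393 to 0.908 for Gbp4, -0.214 to 0.56 for Gbp5, -0.302 to 0.824 for Igtp and -0.526 to 0.781 for Dusp8, each lowest value being that without anti-PD1 replicate 5. With the epithelium score as a covariate they turned to -0.654, -0.0819, -0.403, -0.22, -0.31 and -0.541. The epithelium score was -0.110 in anti-PD1 replicate 5 and 4.01 to 4.89 in the other libraries of that fit. This covariate therefore nearly singled out replicate 5, and its values are not separate from those without that library. With the muscle score, Cd28 turned to -0.255 and Dusp8 to -0.129. Pdcd1 ranged from -0.082 (without anti-PD1 replicate 3) to 0.411. In 4 against 4 libraries Gbp2 turned to 0.0199 with the muscle score and ranged from -0.234 to 0.0551 (without anti-CTLA4 replicate 2) with 1 library left out.

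The replicate numbers did not pair the samples (correlations of same-numbered libraries -0.575, -0.538, 0.0423 and 0.269). With the replicate number as a block, 60 genes (5 against 4) and 58 (4 against 4) had an unadjusted p under 0.05 and over 2-fold, and 0 passed the adjusted test. Anti-PD1 replicate 5 is alone in its block, and the 5 against 4 log2 fold changes turned to -0.638 for Cd28, -0.0599 for Gbp2, -0.389 for Gbp4, -0.198 for Gbp5, -0.317 for Igtp and -0.514 for Dusp8.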

Other observations

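Libraries with few epithelial transcripts were also found in mice given both antibodies and killed on day 35. Gastric epithelium genes took 0.00963%, 0.00454% and 0.00239% of counts in dual ICI replicates 2, 3 and 4, and 0.00626% in anti-PD1 replicate 5. The study describes mice of those numbers in that group as cured. Their skeletal muscle shares were 26.1%, 24.8% and 24.4%, against 24.2% in anti-PD1 replicate 5. Interferon-gamma response genes took 0.0381%, 0.0307% and 0.0395% of counts in those dual ICI libraries and 0.109% in anti-PD1 replicate 5. Gbp2 was at 39.8, 26.7 and 32.0 CPM against 114.4 CPM, and Gbp5 at 14.1, 10.8 and 11.6 CPM against 55.5 CPM. Untreated replicate 2, with 23.3% muscle and 0.131% epithelium, had 0.0378% and a Gbp2 level of 39.5 CPM. The anti-PD1 library thus lay above these 4 libraries in the interferon-gamma response share and in Gbp2, and above the 3 dual ICI libraries in Gbp5. Dual ICI replicates 1 and 5, with 0.648% and 0.752% epithelium, held interferon-gamma response shares of 0.122% and 0.158%, above that library. Their Gbp2 levels were 83.5 and 122.1 CPM and their Gbp5 levels 26.9 and 30.65 CPM. Anti-PD1 replicate 5 is 1 mouse, and the difference was not tested.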
